A study of Mus musculus with 4 samples.

Results

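The 47 genes described here encode the machinery that copies DNA in S phase, and they were taken by their symbols from the 19737 genes of a single-cell RNA-seq table of mouse microglia, where all 47 were present. They were sorted by known role into 10 groups, namely origin licensing (Orc1, Orc6, Cdc6, Cdt1), the MCM2-7 helicase (Mcm2 to Mcm7), helicase activation (Mcm10, Cdc45, Gins1 to Gins4), the sliding clamp and its loader (Pcna, Rfc1 to Rfc5), polymerases and primase (Pola1, Pola2, Pold1, Pold2, Pole, Prim1, Prim2), Okazaki fragment maturation (Fen1, Lig1), the single-strand binding complex RPA (Rpa1 to Rpa3), nucleotide supply (Rrm1, Rrm2, Tyms, Tk1), chromatin and histone supply (Chaf1a, Chaf1b, Uhrf1, Hells, Slbp) and fork protection, turnover and repair (Tipin, Clspn, Dtl, Ung). The study asked how microglia respond to an antibody that activates TREM2, a lipid receptor of microglia, when the antibody carries the antibody transport vehicle (ATV), an Fc portion engineered to bind the transferrin receptor and so to enter the brain. Microglia were taken 24 hours after 1 intravenous dose of 10 mg per kg. All mice carried the TfRmu/hu knock-in, a transferrin receptor with a human part that the ATV can bind, and AppSAA mice carried in addition the knock-in of a mutated amyloid precursor protein gene, labelled homozygous. There were 5 groups of 4 mice. WT;TfRmu/hu mice (WT) received ATV:ISO, the isotype control on the vehicle, or ATV:4D9, the TREM2 antibody 4D9 on the vehicle. AppSAA;TfRmu/hu mice (AppSAA) received ATV:ISO, 4D9 without the vehicle, or ATV:4D9. The arm read here as ATV:ISO is labelled ATV:DNP02, and it was read so by elimination, because the series text names an isotype ATV, naked 4D9 and ATV:4D9 as the only agents. The AppSAA;TfRmu/hu mice of the study are listed as male and aged 8 months, and its WT;TfRmu/hu mice as of both sexes and aged 2 to 8 months, with no age given for the WT mice used here in the sources used here. In the cell annotation, 1 WT mouse given ATV:ISO (replicate 4) is recorded as female and the other 19 as male. WT mice given 4D9 without the vehicle were not analysed here.

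Cells enter S phase after the origin recognition complex, CDC6 and CDT1 have loaded the MCM2-7 helicase onto DNA. Helicase activation by MCM10, CDC45 and the GINS complex then opens the fork, where DNA polymerases copy both strands under the sliding clamp PCNA. Transcription of most of these genes is known to be driven by E2F factors late in G1. Adult microglia divide rarely, and most of them rest outside the cell cycle.

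The table holds counts of unique molecular identifiers (UMIs) for 74758 cells, 2193 to 6126 per mouse and 17150296 to 102446549 UMIs per mouse. Each of the 4 pools that were captured together held 1 mouse of every group. ATV:4D9 mice had more UMIs per cell, with medians of 13479 to 17290 in WT and 13560 to 16475 in AppSAA, against 6859 to 11552.5 in the other 3 groups, so levels are given as a gene's UMIs in 1000000 UMIs of the same cells (CPM) and do not measure molecules per cell. No cell had more UMIs of the markers of another cell type than of 9 microglial markers, whose summed level was 31333 to 43960 CPM per mouse. Markers of other cell types were low, but those of some types moved with the groups. The 4 endothelial markers summed to 18.3 to 24.5 CPM in WT mice given ATV:ISO, 9.54 to 13.1 after ATV:4D9, 37.5 to 52.4 in AppSAA mice given ATV:ISO, 39 to 49.4 after 4D9 and 13.2 to 26.2 after ATV:4D9. The 4 oligodendrocyte markers summed to 57.8 to 71, 34.1 to 46.3, 50.8 to 62.5, 52.1 to 61.7 and 33.2 to 55.4 CPM in the same order, and 2 markers of their precursors (Pdgfra and Cspg4) to 0.525 to 1.9, 1.09 to 2.01, 10.8 to 19.6, 11.8 to 14.7 and 4.67 to 7.15 CPM. Pdgfra was at 0 in AppSAA mice given 4D9, so the sum there is Cspg4 alone. The 4 monocyte markers went the other way in AppSAA mice, at 3.88 to 9.94 CPM after ATV:ISO, 5.33 to 8.46 after 4D9 and 9.42 to 12.9 after ATV:4D9. Those of border macrophages overlapped between all groups, at 8.45 to 27.1 CPM. The part of other cell types in the differences between groups was not tested. The authors' clusters are used by number at both resolutions in the annotation, 0.2 with 6 clusters (coarse) and 0.4 with 9 clusters (finer). Coarse cluster 4 is called cycling here because the 26 mitosis genes listed for comparison (among them Mki67, Ccnb2 and Top2a) held 0.209% to 0.666% of its UMIs by group mean, against 0.00608% to 0.0081% in coarse clusters 0 and 3 together, which hold 96.2% of the cells of WT mice given ATV:ISO. Since the clusters were built from expression that includes these genes, levels are compared between clusters only as a description. All adjusted p-values are from edgeR's quasi-likelihood test on UMIs summed per mouse, with Benjamini-Hochberg adjustment over all genes tested, and a gene is said to be called where this value is under 0.05.

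The promoters of these genes were searched for the E2F site in 4 spellings, TTTCCCGC, TTTGGCGC, TTTCGCGC and TTTGCCGC, on both strands, in the 300 bases from 250 before to 50 after the RefSeq start site (build GRCm38.p6). RefSeq promoters were found for 39 members, and Mcm4, Gins1, Gins2, Gins4, Rfc2, Pole, Prim2 and Tipin had no entry in the table used. At least 1 match was present in 16 of 39 members (41.0%), against 704 of 27018 genes (2.61%) and 1 of 21 mitosis genes (4.76%). The CCAAT box was present in 66.7% of the members, 41.1% of all genes and 85.7% of the mitosis genes. The cell cycle homology region, spelled TTTGAA or TTCGAA, was present in 17.9% of the members, 21.7% of all genes and 81.0% of the mitosis genes. Mcm6 held 3 E2F matches, Mcm3, Mcm5, Mcm7 and Rfc3 held 2 each, and Cdc6, Cdt1, Clspn, Dtl, Gins3, Hells, Lig1, Orc1, Pola1, Pold1 and Uhrf1 held 1 each. A match is a stretch of letters only, and binding was not measured. The 250 bases before the start site are printed below for 5 members with a match that the results turn on and for Rrm2, which has none, with the matches in capitals and each read 5′ to 3′ on the strand of its gene. The positions are chr11:98907901-98908150 (plus strand) for Cdc6, chr8:75109259-75109508 (plus) for Mcm5, chr1:128359706-128359955 (minus) for Mcm6, chr19:38930740-38930989 (plus) for Hells, chr1:191575545-191575794 (minus) for Dtl and chr12:24708004-24708253 (plus) for Rrm2.
Cdc6: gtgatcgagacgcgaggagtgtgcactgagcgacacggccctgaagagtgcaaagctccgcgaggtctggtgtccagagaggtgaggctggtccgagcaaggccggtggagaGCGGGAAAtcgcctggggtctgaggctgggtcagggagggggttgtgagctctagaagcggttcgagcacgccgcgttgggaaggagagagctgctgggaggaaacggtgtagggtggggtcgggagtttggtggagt
Mcm5: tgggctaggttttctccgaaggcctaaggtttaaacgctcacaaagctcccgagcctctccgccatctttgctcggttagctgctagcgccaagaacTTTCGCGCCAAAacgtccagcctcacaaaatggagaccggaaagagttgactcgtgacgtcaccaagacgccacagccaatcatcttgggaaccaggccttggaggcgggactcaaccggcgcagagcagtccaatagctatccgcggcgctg
Mcm6: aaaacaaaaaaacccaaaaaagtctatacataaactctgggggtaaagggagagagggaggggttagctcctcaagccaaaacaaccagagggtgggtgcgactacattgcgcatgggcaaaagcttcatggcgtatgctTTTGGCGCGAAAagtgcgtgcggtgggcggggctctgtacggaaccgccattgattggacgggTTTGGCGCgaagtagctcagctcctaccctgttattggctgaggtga
Hells: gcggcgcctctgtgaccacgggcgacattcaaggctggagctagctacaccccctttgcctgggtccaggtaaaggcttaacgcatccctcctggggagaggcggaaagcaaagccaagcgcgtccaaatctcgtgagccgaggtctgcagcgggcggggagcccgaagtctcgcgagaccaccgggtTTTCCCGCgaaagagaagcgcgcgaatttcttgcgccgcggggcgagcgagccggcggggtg
Dtl: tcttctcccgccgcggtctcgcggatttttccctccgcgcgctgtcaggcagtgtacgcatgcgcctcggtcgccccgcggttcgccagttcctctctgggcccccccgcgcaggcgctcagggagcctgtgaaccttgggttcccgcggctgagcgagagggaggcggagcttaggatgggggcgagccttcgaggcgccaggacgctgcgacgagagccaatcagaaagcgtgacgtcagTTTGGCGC
Rrm2: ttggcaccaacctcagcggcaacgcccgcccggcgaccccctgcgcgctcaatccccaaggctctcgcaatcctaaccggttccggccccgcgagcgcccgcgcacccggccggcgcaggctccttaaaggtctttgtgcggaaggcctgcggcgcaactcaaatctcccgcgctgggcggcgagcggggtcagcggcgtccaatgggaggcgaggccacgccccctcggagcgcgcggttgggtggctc

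ATV:4D9 was followed within 1 day by higher levels of the whole replication set in both genotypes, and no such difference was seen with 4D9 without the vehicle. Among all cells of a mouse, the 47 genes together held 0.0675%, 0.0614%, 0.0649% and 0.069% of UMIs in the 4 WT mice given ATV:ISO. In WT mice given ATV:4D9 they held 0.432%, 0.415%, 0.441% and 0.411%. The groups were far apart, with a mean of 0.0657% ± 0.00335 (SD, n = 4) against 0.425% ± 0.0142 (SD, n = 4). In AppSAA mice the shares were 0.0643%, 0.0592%, 0.0665% and 0.0651% after ATV:ISO and 0.326%, 0.288%, 0.263% and 0.318% after ATV:4D9. After 4D9 without the vehicle they were 0.0624%, 0.0609%, 0.0629% and 0.0675%, so that 3 of these mice lay within the range of the isotype mice and 1 just above it.

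edgeR called all 47 members higher after ATV:4D9 in WT mice, where 30.8% of the 14058 genes tested were called higher, and all 47 in AppSAA mice, where 27.9% were. No member overlapped between the groups in either genotype, against 24.3% and 22.9% of all genes that were higher without overlap. The median log2 fold change of the members was 3.39 in WT, from 0.89 (Gins4) to 5.08 (Hells), and 2.70 in AppSAA, from 0.75 (Gins4) to 4.12 (Cdc6), while the median over all genes was -0.05 and -0.03. More than 2-fold rises were seen in 46 and 45 members, against 11.4% and 8.24% of all genes. Each of these counts of called members was 47 also without any 1 mouse, under both other scalings and by DESeq2 and limma-voom.

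**Figure D1:**
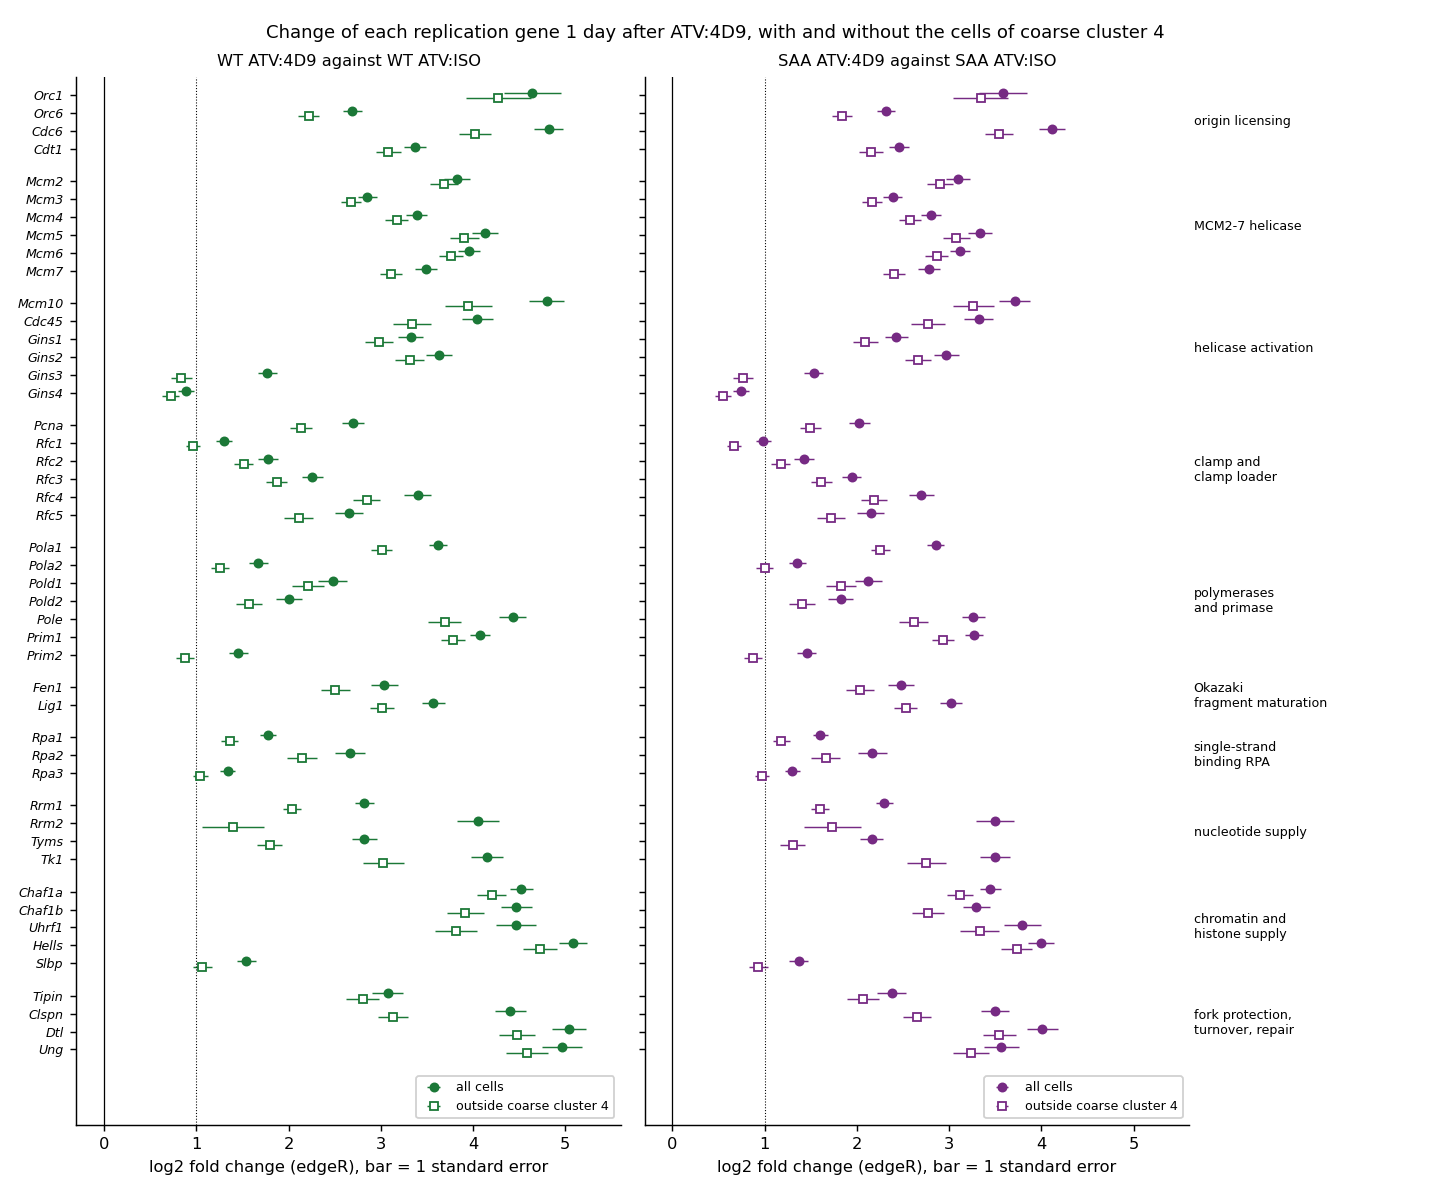
Log2 fold change (x axis, edgeR) of each of the 47 members after ATV:4D9 against ATV:ISO, with WT mice in one panel and AppSAA (SAA) mice in the other, for all cells and for cells outside coarse cluster 4. Points are fitted values with bars of 1 standard error (4 mice per group), the dotted line marks a 2-fold rise, and every point lies above 0, from 0.55 for Gins4 in AppSAA cells outside the cluster to 5.08 for Hells in all WT cells.

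Among the origin licensing genes the rise was largest for Cdc6, the ATPase that helps load the helicase. Its level was 1.4, 1.12, 1.02 and 1.38 CPM in WT mice given ATV:ISO and 31, 34, 34.6 and 29.4 CPM after ATV:4D9. In AppSAA mice it was 1.3, 0.766, 1.46 and 1.3 CPM after ATV:ISO and 20.7, 22.4, 16 and 21.3 CPM after ATV:4D9. All treated mice lay over 10 CPM above all isotype mice, and the log2 fold change was 4.82 ± 0.16 (SE) in WT, adjusted p = 2.3e-15, and 4.12 ± 0.14 in AppSAA, adjusted p = 1.3e-14. Cdt1, the loading partner that is destroyed once S phase begins, went from 6.5 ± 0.717 to 62.1 ± 1.76 CPM (mean ± SD, n = 4) in WT and from 8.19 ± 0.664 to 42.5 ± 3.96 CPM in AppSAA. Orc6, a subunit of the origin recognition complex, rose 5.95-fold and 4.73-fold by group means. The median log2 fold change of the 4 licensing genes was 4.01 in WT and 3.02 in AppSAA.

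All 6 subunits of the MCM2-7 helicase rose, with median log2 fold changes of 3.66 in WT and 2.95 in AppSAA. Mcm6, the subunit whose promoter held the most E2F matches, was at 12.7, 13.5, 11.7 and 15.2 CPM in WT mice given ATV:ISO and 196, 191, 188 and 183 CPM in those given ATV:4D9. In AppSAA mice Mcm6 was at 17.4, 14.9, 17.7 and 15.7 CPM after ATV:ISO, and 4D9 without the vehicle left it at 16.2, 14.6, 15.4 and 17.2 CPM. ATV:4D9 brought it to 152, 134, 116 and 139 CPM in AppSAA mice, below the lowest WT mouse on the same antibody and above every control. The log2 fold change was 3.95 ± 0.12 in WT (adjusted p = 7.8e-16) and 3.12 ± 0.11 in AppSAA (adjusted p = 1.8e-14). Mcm3, another subunit, was at 47.1, 40.9, 48.8 and 44.8 CPM after ATV:ISO and 309, 302, 303 and 294 CPM after ATV:4D9 in WT. Its AppSAA values were 44.9, 38.3, 45.2 and 42.4 and 244, 200.4, 187 and 214 CPM. The 4 WT mice on ATV:4D9 were close to each other for both genes and the 4 AppSAA mice were more spread, with replicate 3 lowest.

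Of the genes that switch the helicase on, Mcm10, which is needed for origin firing, went from 1.17, 0.439, 0.921 and 1.45 CPM to 22.7, 24, 31.4 and 26.4 CPM in WT, a 26.3-fold difference of means. In AppSAA the Mcm10 difference was 12.6-fold. Gins2, a subunit of the GINS complex, rose 11.4-fold and 7.4-fold. Gins4, a subunit of the same complex, had the smallest rise of all members. Its level was 26.8, 27.4, 26.2 and 23.9 CPM and 45.5, 42.2, 47.2 and 43 CPM in WT, so that the groups were apart although the log2 fold change was only 0.89 ± 0.09 (adjusted p = 3.3e-08). In AppSAA the Gins4 change was 0.75 ± 0.09 (adjusted p = 4.7e-07). The members of 1 complex thus differed widely in how far they moved.

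Pcna, the gene of the sliding clamp, was at 56.9, 53.2, 64.1 and 70.2 CPM in WT mice given ATV:ISO and 339, 307, 424 and 392 CPM in those given ATV:4D9. In AppSAA mice it was at 61.7, 62.4, 76.6 and 78.5 and 268, 236, 262 and 315 CPM, a 3.87-fold difference of means against 5.98-fold in WT. The clamp loader subunits ranged around it, from Rfc4 at 9.71-fold in WT and 6.13-fold in AppSAA to Rfc2 at 3.16-fold in WT and 2.54-fold in AppSAA and Rfc1, the large subunit, at 2.28-fold and 1.89-fold. All 6 genes of the group were called higher in both genotypes, with median log2 fold changes of 2.46 and 1.99.

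Both catalytic partners that start new strands rose strongly. Pola1, the catalytic subunit of polymerase alpha, had 4.61, 5.47, 5.78 and 6.08 CPM in WT mice given ATV:ISO and 57.6, 63.2, 67 and 62.5 CPM after ATV:4D9. Prim1, the catalytic primase subunit, had 3.73, 3.17, 3.38 and 4.34 CPM and 56.7, 58, 59.2 and 54.5 CPM, and it had the smallest adjusted p of the members in WT (2.4e-16, log2 fold change 4.07 ± 0.11). In AppSAA the fold of means was 6.9 for Pola1 and 9.16 for Prim1. Prim2, the regulatory primase subunit, rose only 2.54-fold in WT, from 13.3, 14, 13.2 and 15.3 CPM to 31.4, 31.7, 41.5 and 36.8 CPM. Its AppSAA levels were 8.69, 7.36, 9.79 and 10.2 CPM after ATV:ISO and 22.5, 22, 21.7 and 27.7 CPM after ATV:4D9, where replicate 4 stood above the other 3. The Prim2 rise was of like size in both genotypes, 2.61-fold in AppSAA.

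Lig1, the ligase that seals Okazaki fragments, rose 11-fold in WT, to between 177 and 182 CPM, and 7.71-fold in AppSAA, to between 96.9 and 138 CPM. Fen1, the flap nuclease that acts before it, rose 7.56-fold and 5.28-fold. The 3 subunits of the single-strand binding complex moved less, with Rpa2 at 5.84-fold and 4.25-fold, Rpa1 at 3.16-fold and 2.88-fold, and Rpa3 at 2.34-fold in both genotypes.

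In nucleotide supply, Tyms, the enzyme that makes thymidylate, rose 6.5-fold in WT and 4.23-fold in AppSAA, and Rrm1, the large subunit of ribonucleotide reductase, 6.52-fold and 4.67-fold. Rrm2, the small subunit of the same enzyme (named here after its values were seen), went from 3.32, 1.86, 3.43 and 3.32 CPM to 59.5, 39.7, 42.8 and 38.6 CPM in WT and from 3.86, 3.11, 3.72 and 3.87 CPM to 47.7, 39, 31.2 and 36.9 CPM in AppSAA. The difference was 15.2-fold and 10.6-fold by means, and it lay almost wholly in cycling cells, as the levels by cluster show.

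The largest rise of all members in WT was that of Hells, a chromatin remodeller of the SNF2 family. Hells was at 4.31, 2.78, 4.55 and 5.16 CPM in WT mice given ATV:ISO and 124, 140.3, 138 and 125 CPM after ATV:4D9, a 31.4-fold difference of means. In AppSAA mice it was at 6.0, 4.9, 6.03 and 6.17 CPM after ATV:ISO, 4.61, 5.19, 4.46 and 6.99 CPM after 4D9 and 93.8, 84, 78.2 and 93.2 CPM after ATV:4D9. The 2 control groups lay on top of each other and the ATV:4D9 mice over 10-fold above them, with a log2 fold change of 4.00 ± 0.14 (adjusted p = 1.8e-14). Slbp, which binds the stem-loop of replication-dependent histone mRNAs, rose only 2.69-fold in WT and 2.46-fold in AppSAA. Dtl, the receptor of the ubiquitin ligase that destroys CDT1 in S phase, rose 30.5-fold, from 3.32, 1.71, 2.25 and 3.25 CPM to 69.1, 82.9, 90.4 and 79.2 CPM in WT, and 15.5-fold in AppSAA. Ung, the glycosylase that removes uracil from DNA, went from 3.21, 1.32, 1.33 and 2.68 CPM to 65.1, 64.9, 60.5 and 56.4 CPM in WT and from 3.47, 3.48, 3.65 and 3.87 CPM to 49.4, 40.1, 32.3 and 40.0 CPM in AppSAA, 28.9-fold and 11.2-fold. Tipin, a partner of the fork protection factor TIMELESS, rose 7.77-fold and 4.91-fold.

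The antibody without the vehicle changed no member that the test could call. Of 47 members, edgeR called 0 between AppSAA mice given 4D9 and ATV:ISO, where 0.0% of all genes were called in each direction, 0 members had an unadjusted p under 0.05, and DESeq2 and limma-voom called 0. The fitted differences ran from -0.39 (Orc1) to 0.22 (Rrm2) on the log2 scale, with a median of -0.00. Against 4D9 itself, ATV:4D9 left all 47 members higher in AppSAA mice (median log2 fold change 2.75, background 27.6%).

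Between the isotype groups the members' median lay above that of all genes in AppSAA mice, and how many members were called in each direction depended on the scaling. edgeR with TMM factors called 14 members higher and 1 lower in AppSAA than in WT mice given ATV:ISO, against 14.4% and 13.7% of all genes, 16 higher and 1 lower with RLE factors, and 25 with the pool as a block (22 higher and 3 lower). With total UMIs as the library size, which moves all genes together, the split was 6 higher and 7 lower. The median of all genes then went from -0.06 to -0.24 on the log2 scale and that of the members from 0.30 to 0.12, with 37 and 28 members above 0. With cells thinned to 4000 UMIs each, 5 members were called, and 7 without cells of more than 25000 UMIs. For these other settings the share of all genes called is not given here. In CPM, 3 members were higher and 7 lower without overlap between the groups, against 9.5% and 30.6% of all genes. Ung had the largest positive difference, 0.94, at 3.21, 1.32, 1.33 and 2.68 CPM in WT and 3.47, 3.48, 3.65 and 3.87 CPM in AppSAA. Prim2 was lower under TMM, by -0.45 (adjusted p = 0.0025), with every AppSAA mouse (8.69, 7.36, 9.79 and 10.2 CPM) below every WT mouse (13.3, 14, 13.2 and 15.3 CPM). The make-up by cluster also differed between these groups. In WT and AppSAA, coarse clusters 0 and 3 made up 96.2% and 56.0% of cells, and coarse cluster 1 made up 1.41% and 38.3%. The cycling coarse cluster 4 made up 0.351% and 0.949%. The members' median difference was 0.01 within clusters 0 and 3, 0.10 within cluster 1 and 0.44 within cluster 2. Over all genes it was -0.00, 0.05 and 0.00. The part of the make-up was not tested.

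After ATV:4D9 the members stood lower in AppSAA than in WT mice. edgeR called 25 members lower and 0 higher, where 3.98% and 7.84% of all genes were, and 44 members were lower without overlap against 16.6% of all genes. The median difference was -0.37 on the log2 scale, from -0.61 (Dtl) to -0.08 (Rrm2), and a single log2 unit is a factor of 2. The cycling coarse cluster 4 made up 40.0% of cells in WT and 22.4% in AppSAA. The part of the make-up by cluster in this difference was not tested. The count called was 46 with the pool as a block, 44 with total UMIs as library size, 41 without cells above 25000 UMIs and 38 at 4000 UMIs per cell. It fell to 16 without AppSAA ATV:4D9 replicate 2 and 11 without replicate 3. With total UMIs the median of all genes went from -0.01 to -0.15 and that of the members from -0.37 to -0.52. Shares of all genes called under these alternatives are not given here. The rise itself was smaller in AppSAA than in WT for 25 members by the interaction term, all with a negative difference, where 5.35% of all genes were called lower (38 members with the pool as a block and 15 at 4000 UMIs per cell). No share of all genes is given here for the counts with the block or at 4000 UMIs. Ung had the largest difference in rise, -1.40 ± 0.28 (adjusted p = 0.0028), and Hells differed by -1.09 ± 0.19 (adjusted p = 0.0011). Prim2 differed by 0.00, and the median over the members was -0.66 against 0.04 over all genes. The term takes in both the difference after ATV:4D9 (median -0.37) and that between the isotype groups (median 0.30), whose calls moved with the scaling. The isotype levels of Ung, given above, were low and were higher in AppSAA mice.

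Within the AppSAA mice given ATV:4D9, the highest and the second coarse cluster were the same for nearly all members, while the lowest varied. Coarse cluster 4 had the highest mean CPM for 47 of 47 members, and coarse cluster 2 came second for 46 of them, with coarse cluster 5 second for Rrm2. Mcm6 was at 225 ± 15.3 CPM (mean ± SD over 4 mice) in coarse cluster 4, 143 ± 6.99 in cluster 2, 92.3 ± 10.3 in cluster 5, 21.3 ± 3.57 in cluster 3, 20.3 ± 5.09 in cluster 0 and 13.4 ± 1.24 in cluster 1. Clusters 3 and 0 did not differ beyond their spread. Hells, with 162 CPM in cluster 4, 84.0 in cluster 2 and 4.25 in cluster 1, and Pcna, with 541, 224 and 54.5 CPM, kept the same order at the top. Rrm2 was different in shape, with 130 ± 14.4 CPM in cluster 4 and no more than 6.64 CPM in any other. The lowest coarse cluster was 1 for 32 members, 3 for 8 and 0 for 7.

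**Figure D2:**
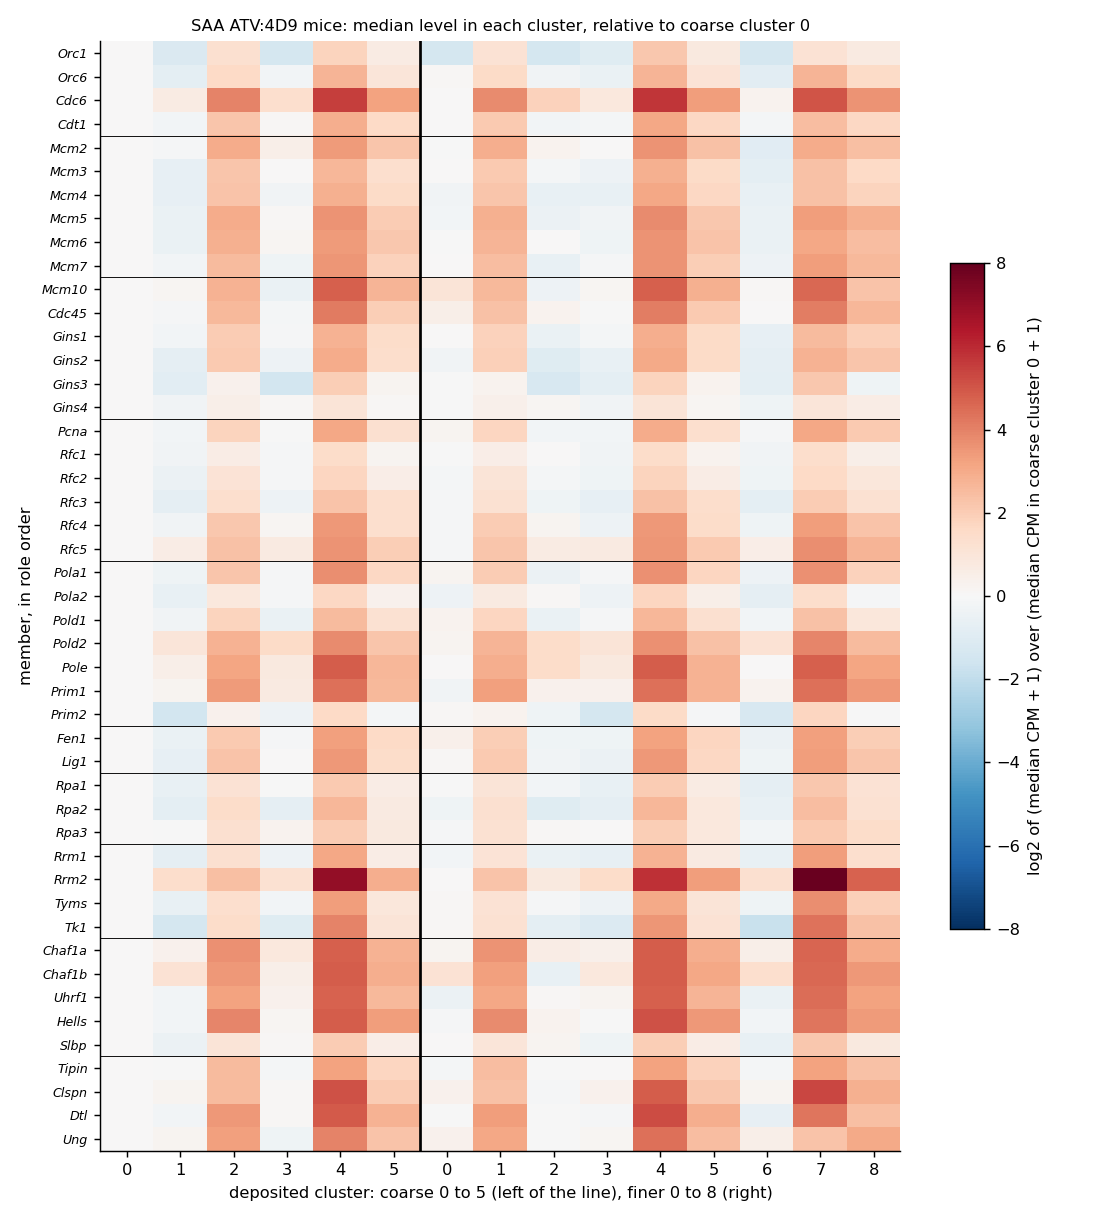
Level of each member (rows, in role order) by coarse and finer cluster (columns) in AppSAA mice given ATV:4D9, as the log2 ratio of the median CPM + 1 over mice to that in coarse cluster 0. Coarse cluster 4 is the darkest red among the coarse clusters for all members, coarse clusters 2 and 5 are also above cluster 0 for most, and Rrm2 is darkest in finer cluster 7.

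The finer clustering splits the cycling cells into finer clusters 4 and 7, and these differed in which members they held. All 26 mitosis genes were higher in finer cluster 7 in WT and AppSAA mice given ATV:4D9, with median log2 ratios of finer 4 to finer 7 of -2.71 and -2.63. The members split, with 22 higher in finer cluster 4 and 25 in finer cluster 7 in WT, and 30 and 17 in AppSAA. Ung stood at 113, 113, 99.3 and 96.6 CPM in finer cluster 4 of WT mice given ATV:4D9 and at 24.1, 37.9, 34.9 and 22.3 CPM in finer cluster 7. Rrm2 went the other way, with 58.1, 42, 39.4 and 37.9 CPM in finer cluster 4 and 280.4, 242, 204 and 219 CPM in finer cluster 7. In all 4 mice Ung was higher in finer cluster 4 and Rrm2 in finer cluster 7, with log2 ratios of 1.82 and -2.41, and AppSAA mice gave 2.15 and -2.0. Orc1 and Dtl were on the side of Ung in WT (1.16 and 0.58) and Tk1, the thymidine salvage kinase, and Tyms on that of Rrm2 (-0.96 and -0.87). Orc1 and Tk1 were chosen after their values were seen.

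Coarse cluster 4 held 40.0% of the cells of WT mice given ATV:4D9 and 22.4% of those of AppSAA mice given ATV:4D9, against 0.351% to 1.27% in the other groups. It held 44.4% ± 4.35 (SD, n = 4) and 27.3% ± 3.92 of all UMIs in the WT and AppSAA mice given ATV:4D9, and more of the members' UMIs, 63.7% and 52.1%. By gene the share ran from 53.5% (Gins4) to 95.3% (Rrm2) in WT, with a median of 63.6%, and from 39.6% (Gins4) to 91.3% (Rrm2) in AppSAA, with a median of 53.3%. After Rrm2, the highest WT shares were those of Clspn, the mediator of the replication checkpoint, at 83.5%, Tk1 at 81.8% and Mcm10 and Tyms at 76.2% each. Mcm2 (54.6%), Mcm3 (54.7%) and Mcm6 (56.6%) were near the low end. In WT mice 47 members had over 50% of their UMIs in the cycling cluster, against 21.3% of the genes tested, and in AppSAA mice 26, against 4.32%, while the median gene had 44.8% and 28.2% there. In AppSAA mice given ATV:ISO the cluster held 1.81% of all UMIs and 8.68% of the members' UMIs, although Rrm2 already had 59.2% of its UMIs there.

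**Figure D3:**
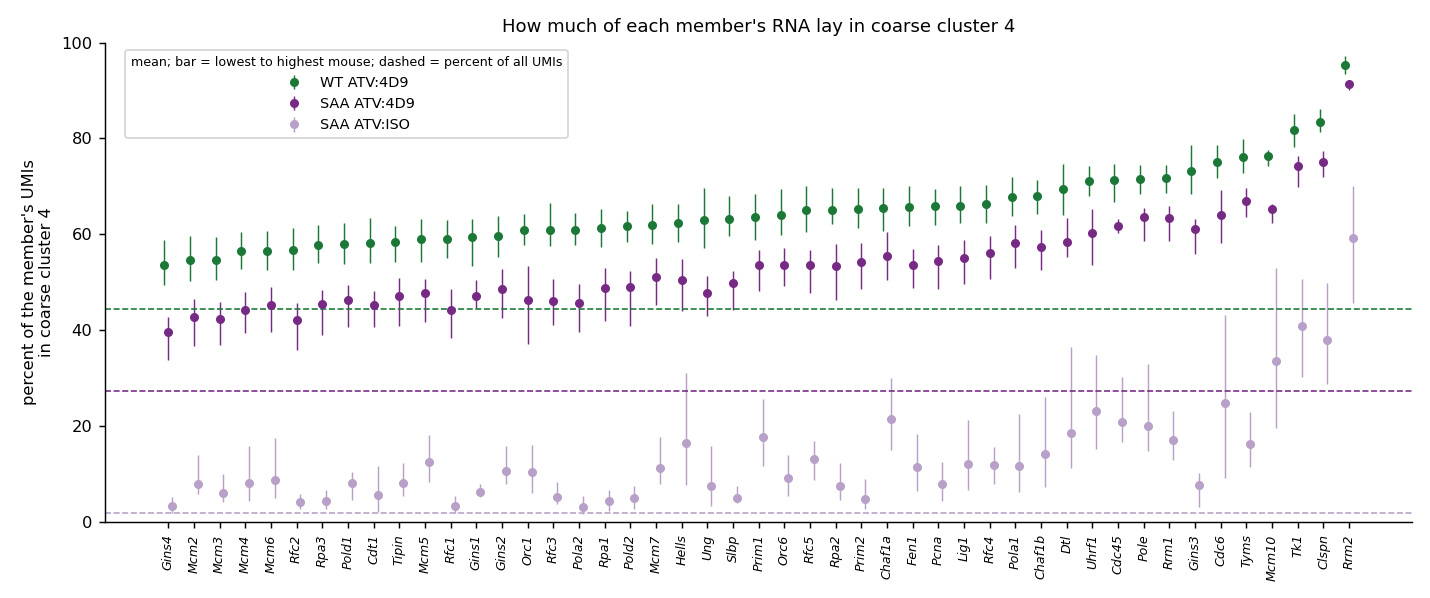
Percent of each member's UMIs that lay in coarse cluster 4 in WT and AppSAA (SAA) mice given ATV:4D9 and AppSAA mice given ATV:ISO, ordered by the WT value, with points for the mean of 4 mice and bars from the lowest to the highest mouse. Dashed lines mark the percent of all UMIs that lay in the cluster (44.4%, 27.3% and 1.81%), and every point lies above the line of its group, with Rrm2 highest in each.

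With the cells of coarse cluster 4 taken out, the rise remained, in cells whose make-up by cluster also moved. The members held 0.275%, 0.272%, 0.281% and 0.279% of the UMIs outside that cluster in WT mice given ATV:4D9, against 0.0644%, 0.0592%, 0.0621% and 0.0667% after ATV:ISO. In AppSAA mice they held 0.224%, 0.178%, 0.18% and 0.203% after ATV:4D9, against 0.0612%, 0.0555%, 0.059% and 0.0615% after ATV:ISO and 0.0584%, 0.0551%, 0.0571% and 0.0606% after 4D9. Every ATV:4D9 mouse lay far above every control mouse of its genotype. edgeR called 47 of 47 members higher in WT (background 31.1%) and 47 of 47 in AppSAA (26.2%), with median log2 fold changes of 2.98 and 2.17 against -0.00 and -0.02 over all genes. Members that rose more than 2-fold numbered 43 and 40, against 9.99% and 6.3% of all genes, and 46 and 47 did not overlap between groups, against 21.0% and 19.3%. All counts of 47 held also when cells of finer clusters 4 and 7 were left out in place of coarse cluster 4. Of all cells, coarse clusters 0 and 3 made up 96.2% after ATV:ISO and 7.67% after ATV:4D9 in WT, and 56.0% and 6.29% in AppSAA. Coarse cluster 2 made up 1.35% and 47.8% in WT, and 2.34% and 35.4% in AppSAA. The WT median was 0.41 within clusters 0 and 3 and 1.10 within cluster 2, both below the 2.98 given above. The part of this shift in the rise was not tested.

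Outside the cycling cluster Mcm6 was at 11.6, 13, 10.8 and 14.8 CPM in WT mice given ATV:ISO and 152, 147, 147 and 147 CPM after ATV:4D9. In AppSAA mice it was at 16.8, 14.3, 15 and 15 and 121, 94.5, 89.9 and 102 CPM. The log2 fold change was 3.76 ± 0.13 (adjusted p = 2.5e-14) in WT and 2.87 ± 0.12 (adjusted p = 1.0e-12) in AppSAA. Hells was at 82.6, 93.7, 92.5 and 88 CPM in WT and 68.9, 51.3, 56.2 and 61.6 CPM in AppSAA mice given ATV:4D9, where no isotype mouse of either genotype exceeded 5.80 CPM. Hells had the largest change of all members here in both genotypes, 4.72 ± 0.18 and 3.73 ± 0.16 on the log2 scale. Mcm3 rose 5.55-fold and 4.1-fold by means, and Cdc6 14.3-fold and 10.7-fold. Pcna rose 3.82-fold and 2.59-fold. The enzymes of nucleotide supply lost most when cycling cells were removed, from a median log2 fold change of 3.44 in all cells of WT mice to 1.92. Rrm2 was at 2.17, 0.736, 1.5 and 2.21 CPM and 4.46, 1.9, 4.42 and 4.32 CPM in WT, the only member with overlapping WT groups here, and its log2 fold change was 1.39 ± 0.34 (adjusted p = 0.0013). By role, the medians outside the cluster in WT were 3.92 for chromatin and histone supply, 3.80 for fork protection, turnover and repair, 3.55 for licensing, 3.43 for MCM2-7, 3.15 for helicase activation, 2.76 for Okazaki maturation, 2.21 for polymerases and primase, 1.99 for clamp and loader and 1.36 for RPA.

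**Figure D4:**
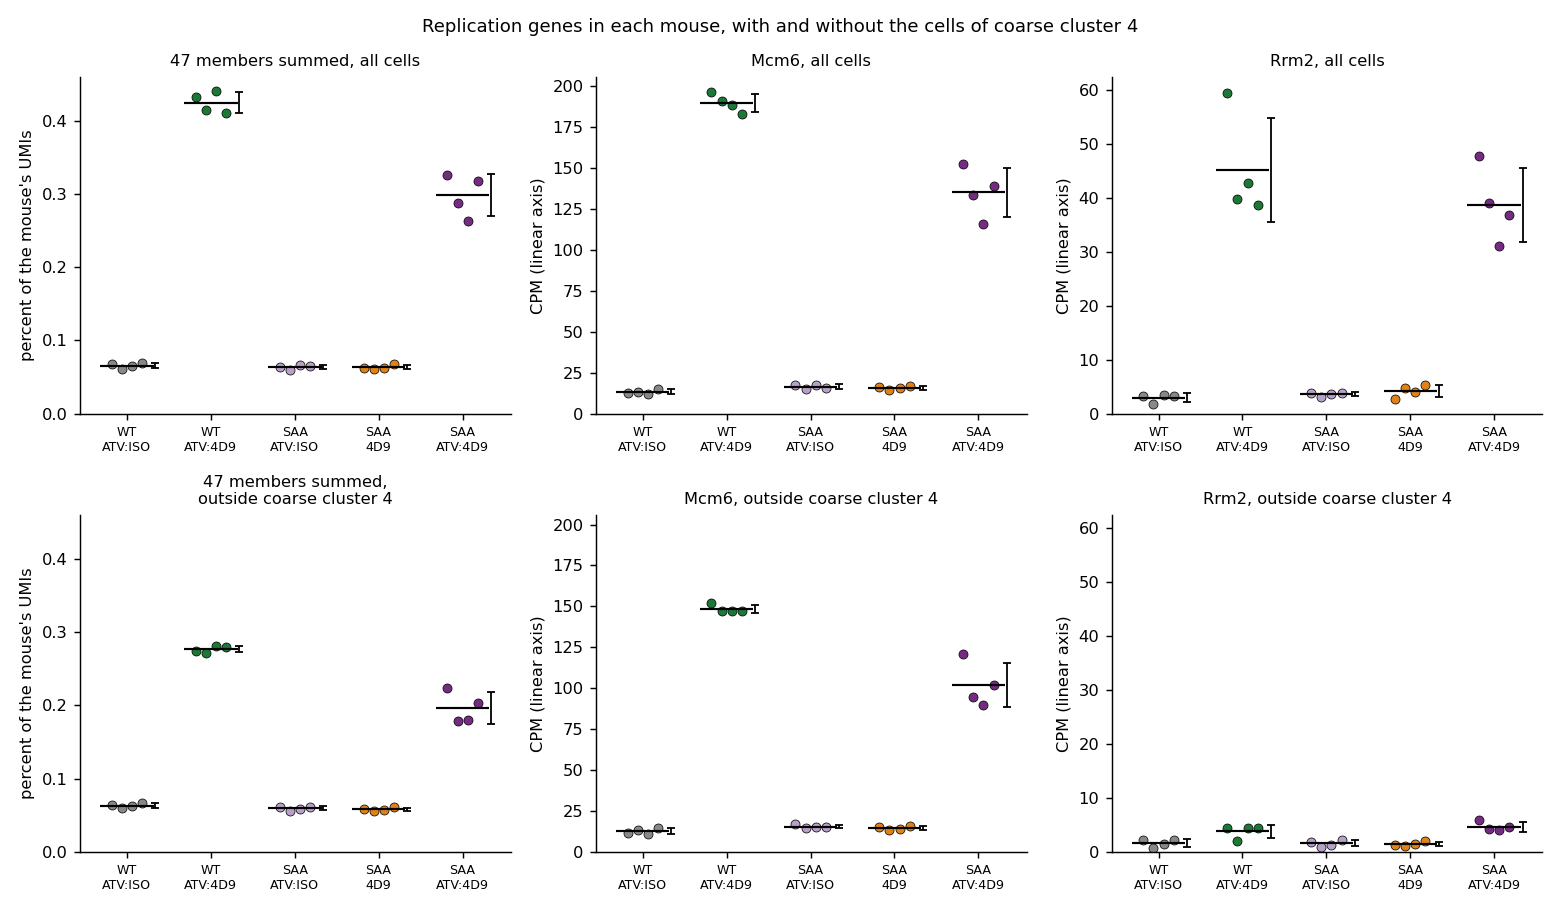
Percent of UMIs from the 47 members and CPM of Mcm6 and Rrm2 (linear axes), in all cells (top row) and outside coarse cluster 4 (bottom row), with 1 point per mouse, a line at the mean and a bar of 1 SD for each of the 5 groups (SAA is AppSAA). Mice given ATV:4D9 lie above all others for the set and for Mcm6 in both rows, whereas Rrm2 outside the cluster is under 6 CPM in every mouse.

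The genotype difference after ATV:4D9 was also present outside the cycling cluster, with 16 members called lower in AppSAA (background 3.17%) and 39 lower without overlap (15.4%), at a median of -0.37 against -0.00 over all genes. The make-up of these cells by cluster differed as well. Of all cells in WT and AppSAA, coarse cluster 1 made up 0.383% and 13.5%, and cluster 5 made up 4.21% and 22.4%. Cluster 2 made up 47.8% and 35.4%. The members' median difference was -0.01 within clusters 0 and 3, -0.05 within cluster 2 and -0.74 within cluster 5. The part of the make-up in the difference was not tested. The count of 16 was 44 with the pool as a block (43 lower and 1 higher), 42 with total UMIs as library size and 26 without cells above 25000 UMIs. With total UMIs the median of all genes was -0.15 and that of the members -0.52, and shares of all genes called under these alternatives are not given here. The count of members moved between 6 and 34 as single mice were left out. It was 34 without AppSAA ATV:4D9 replicate 1, 10 without replicate 4, 6 without replicate 2 or 3, and 10 or 9 without WT ATV:4D9 replicate 1 or 4. The interaction called 18 members, all lower (background 4.44%), 35 with the pool as a block, 6 at 4000 UMIs per cell and 28 without AppSAA ATV:4D9 replicate 1. Between the isotype groups 11 members were called higher and 1 lower (14.9% and 9.51% of all genes), 10 higher and 1 lower with RLE factors, and 5 higher and 9 lower with total UMIs as library size. The make-up by cluster differed between these groups too, as given above for all cells, and its part was not tested. The median of all genes was -0.02 with TMM factors and -0.25 with total UMIs, and that of the members 0.19 and -0.04, above the other in both but below 0 in the latter. The count under TMM was 21 with the pool as a block, 3 with cells thinned to 4000 UMIs, 5 without cells above 25000 UMIs, 6 by limma-voom, 7 outside finer clusters 4 and 7, and 6 without WT ATV:ISO replicate 2 or AppSAA ATV:ISO replicate 4. For 4D9 without the vehicle edgeR called 0 members here too (0.0% of all genes in each direction, 0 members at an unadjusted p under 0.05, 0 by DESeq2 and limma-voom), and against 4D9 all 47 were higher after ATV:4D9 (26.0%).

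The share of cells in which a member was detected was compared after thinning each cell to 4000 UMIs, which left out 1926 cells of lower depth. A UMI of Mcm6 was found in 4.55% ± 0.631 (SD, n = 4) of cells of WT mice given ATV:ISO and 47.5% ± 1.25 of those of WT mice given ATV:4D9 (9.15% and 79.7% unthinned). Outside coarse cluster 4 the shares were 4.49% ± 0.658 and 38.6% ± 0.424 in WT (8.96% and 69.8% unthinned), and 5.21% ± 0.544 and 26.7% ± 3.95 in AppSAA. Cells of coarse cluster 1 gave 4.71% in AppSAA mice after ATV:ISO, 4.51% after 4D9 and 5.24% after ATV:4D9 at the same depth. The isotype shares lay near those of cluster 1, and the ATV:4D9 shares above them. Cluster 1 had the lowest level of the coarse clusters for 32 members in AppSAA mice given ATV:4D9, and the members helped to set the clusters. Its shares are therefore given as a description only. Hells was detected outside the cycling cluster in 1.48% ± 0.358 and 25.3% ± 1.91 of WT cells and 1.7% ± 0.249 and 16.3% ± 2.29 of AppSAA cells, against 1.37% to 1.60% in coarse cluster 1 (unthinned 2.87% and 53.3% in WT, 4.25% and 37.6% in AppSAA, and 4.55% to 4.97% in cluster 1). Mcm3 was detected there in 15.1% and 55.1% of WT cells, against 11.3% to 12% in cluster 1. Each of the 80 comparisons of 20 members in 2 cell sets and 2 genotypes gave p = 0.0286 in a two-sided exact permutation test over mice, the smallest that 4 against 4 mice allow, and 0.0286 after Benjamini-Hochberg adjustment, with all 4 treated mice above all 4 isotype mice. The splits were free across pools, so these p-values leave out the pairing of mice by pool. Fewer splits stay within pools, and they could not give a p this small.

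The mean number of different members with at least 1 UMI was also taken in cells thinned to 4000 UMIs, a count that grows less than the UMIs do where members are high. It was 2.34 in WT mice given ATV:ISO, 11.8 after ATV:4D9, 2.26 in AppSAA mice given ATV:ISO, 2.25 after 4D9 and 8.18 after ATV:4D9. Outside coarse cluster 4 it was 8.24 and 5.81 in the WT and AppSAA mice given ATV:4D9, against 2.16 to 2.30 in the other groups. In coarse cluster 1 it was 1.80 to 1.92 in every group with enough cells.

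Cells of coarse clusters 0 and 3 showed a small rise, in which most members called were helicase subunits, but the make-up of these clusters moved with it. Cells that the finer clustering places in finer cluster 1, where members are higher, made up 0.507% of them after ATV:ISO and 21.6% after ATV:4D9 in WT, and 0.854% and 15.4% in AppSAA. The members held 0.0613% ± 0.0026 of UMIs there in WT mice given ATV:ISO and 0.0734% ± 0.00477 after ATV:4D9 (SD, n = 4), and 0.0607% ± 0.00273 and 0.0682% ± 0.00245 in AppSAA. Of the 46 members tested (Orc1 had too few counts), edgeR called 11 higher in WT (background 4.26%) and 6 in AppSAA (3.39%), or 17 and 13 with the pool as a block, which also called 1 lower in WT. The 11 were Mcm2 to Mcm7, Gins1, Gins2, Rfc2, Rfc5 and Lig1, and the 6 were Mcm2, Mcm3, Mcm5, Mcm6, Gins2 and Lig1. Mcm5 was at 7.06, 5.96, 7.2 and 8.89 CPM in WT mice given ATV:ISO and 13.8, 17.5, 20.3 and 19.3 CPM after ATV:4D9, with no overlap (log2 fold change 1.35 ± 0.16, adjusted p = 1.8e-05). Mcm6 was at 9.06, 11.3, 10.1 and 13.2 and 21.4, 25.2, 30.4 and 26.5 CPM in WT, and 13, 10.9, 12.8 and 12.2 and 20.3, 21.2, 19.3 and 23.2 CPM in AppSAA. No ATV:4D9 mouse overlapped with an isotype mouse of its genotype for Mcm6. Against 4D9, 7 members were higher after ATV:4D9 (2.79%), 16 with the pool as a block and 3 without AppSAA ATV:4D9 replicate 4. The counts with the block have no share of all genes beside them here. Within the cells also in finer cluster 0 or 2, a choice made after seeing the data, 5 members were called higher in WT (Gins1, Gins2, Lig1, Mcm5 and Mcm6), 1 in AppSAA and 1 against 4D9 (Mcm6 in both), and the members held 0.0612% ± 0.00258 and 0.0705% ± 0.00441 of UMIs in WT and 0.0606% ± 0.00277 and 0.065% ± 0.00333 in AppSAA. The share of all genes called in these cells is not given here, so the counts have no background beside them. The median log2 fold change of the members was 0.37 in WT and 0.22 in AppSAA, against -0.01 and -0.02 over all genes. Coarse clusters 0 and 3 held 7.67% and 6.29% of cells in WT and AppSAA mice given ATV:4D9, against 55.3% to 96.2% in the other groups.

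In coarse cluster 1 no member was called. It held 38.3% of the cells of AppSAA mice given ATV:ISO, 39.4% after 4D9 and 13.5% after ATV:4D9, and the members held 0.0502% ± 0.0024, 0.0492% ± 0.00237 and 0.0508% ± 0.00457 of its UMIs. Mcm6 was at 14.3, 12.1, 11.9 and 13.1 CPM after ATV:ISO and 14.4, 12.4, 12.2 and 14.4 CPM after ATV:4D9, with overlapping groups. Of 46 members tested, edgeR called 0 between AppSAA mice given ATV:4D9 and ATV:ISO (background 0.92% higher and 0.422% lower), with 5 at an unadjusted p under 0.05, 0 by DESeq2, 2 with the pool as a block and 1 without AppSAA ATV:ISO replicate 4. The median log2 fold change was 0.11.

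Coarse cluster 2, small in the control groups (1.35% to 2.50% of cells) and large after ATV:4D9 (47.8% in WT and 35.4% in AppSAA), held members at a level between the cycling cluster and the rest already in control mice. Their share of its UMIs was 0.145% ± 0.0309 in WT and 0.189% ± 0.0219 in AppSAA mice given ATV:ISO, and 0.295% ± 0.00239 and 0.268% ± 0.0114 after ATV:4D9. edgeR called 34 of 47 members higher in WT (background 3.19%) and 35 in AppSAA (6.89%), the latter 16 without AppSAA ATV:ISO replicate 3, and the median log2 fold changes were 1.10 and 0.59 against -0.02 over all genes in both. Without overlap between groups 41 and 27 members were higher, against 8.45% and 8.29% of all genes. Hells was at 35.6, 28.5, 19 and 26.9 CPM and 86.5, 102, 96.4 and 93.7 CPM in WT, and 38.7, 48.6, 27.2 and 41.3 and 85.8, 78.8, 83.7 and 87.7 CPM in AppSAA. Rrm2 was not called and had fitted differences of -0.46 and -0.61, with 10.8, 10.4, 3.84 and 8.37 CPM after ATV:ISO and 6.3, 4.37, 3.76 and 4.38 CPM after ATV:4D9 in AppSAA. Between genotypes after ATV:4D9 the median difference in this cluster was -0.05 and edgeR called 0 members (1.94% of all genes higher and 0.125% lower; 1 member at an unadjusted p under 0.05; 0 by DESeq2; 1 with the pool as a block). Against 4D9, 40 members were higher after ATV:4D9 (7.3%). The WT values after ATV:ISO rest on 23 to 42 cells per mouse. Cells that the finer clustering places in the cycling finer cluster 4 made up 0.752% of coarse cluster 2 in WT mice after ATV:ISO and 8.77% after ATV:4D9, and 6.71% and 6.99% in AppSAA, while those in finer cluster 8 made up 3.01%, 3.49%, 4.92% and 7.21% in the same order. Cells in finer clusters 0 and 3, where members are low, made up 18.8% and 0.51% in WT and 22.8% and 0.867% in AppSAA. With the cells of finer clusters 4 and 8 left out, a choice made after seeing the data, 32 of the 45 members tested were called higher in WT and 41 in AppSAA. The medians were 1.08 and 0.86, against -0.02 and -0.03 over all genes, and the WT isotype mice had 22 to 42 cells. Within the cells also in finer cluster 1 alone (15 to 37 per WT isotype mouse), likewise chosen after seeing the data, 29 of 43 members were called higher in WT and 38 in AppSAA. The medians were 1.03 and 0.90, against -0.02 over all genes in both. For both restricted sets of cells the share of all genes called is not given here, so the counts have no background beside them.

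Within the cycling cluster itself the members were higher in AppSAA mice after ATV:4D9 than after ATV:ISO, and the mitosis genes lower. The AppSAA mice given ATV:ISO had 27 to 74 cells there, and WT mice given ATV:ISO too few for a test. The members held 0.301% ± 0.0474 of the cluster's UMIs after ATV:ISO, 0.313% ± 0.0283 after 4D9 and 0.573% ± 0.0191 after ATV:4D9, and 0.61% ± 0.00966 in WT mice given ATV:4D9. edgeR called 41 of 47 members higher after ATV:4D9 than after ATV:ISO (background 13.0%), with a median log2 fold change of 0.96 against 0.00 over all genes, and 41 members did not overlap (15.0%). Ung had the largest difference, with 7.98, 7.4, 23.7 and 15.5 CPM after ATV:ISO, 31.6, 4.63, 18.7 and 13.5 CPM after 4D9 and 74.3, 78.3, 62.6 and 67.5 CPM after ATV:4D9 (2.12 ± 0.25, adjusted p = 1.2e-06). Mcm6 was at 61.9, 53.3, 128 and 56.2 CPM after ATV:ISO and 225, 244, 207 and 224 CPM after ATV:4D9. The 6 members not called were Gins3, Gins4, Rfc5, Rrm1, Rrm2 and Tyms, and Rrm2 was at 146, 139, 105 and 96.1 and 144, 137, 127 and 111 CPM, with overlapping groups. Nucleotide supply was the role with the fewest called, 1 of 4 (Tk1), while all licensing and MCM2-7 genes were called.

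edgeR called 26 of 26 mitosis genes lower in coarse cluster 4 after ATV:4D9 than after ATV:ISO in AppSAA mice (background 11.5%), with a median log2 fold change of -1.43. Ccnb2, a mitotic cyclin, was at 199.5, 237, 133 and 231 CPM in the AppSAA mice given ATV:ISO and 23.5, 27.7, 31 and 25.6 CPM in those given ATV:4D9. Mki67, a marker of dividing cells, was at 790.1, 776, 679 and 645 CPM and 240.2, 366, 401 and 342 CPM. Of the AppSAA ATV:ISO cells in coarse cluster 4, 12.9% were also in finer cluster 4 and 83.9% in finer cluster 7. After ATV:4D9 these shares were 60.9% and 31.9%. The make-up of the cluster by finer cluster thus moved with this result, and its part was not tested. Finer cluster 7 held 159 cells of the AppSAA mice given ATV:ISO in all. Within finer cluster 7 alone the members held 0.265% ± 0.0404 of UMIs after ATV:ISO, 0.274% ± 0.0173 after 4D9 and 0.551% ± 0.0323 after ATV:4D9 in AppSAA mice, and the mitosis genes 0.742% ± 0.151, 0.716% ± 0.0615 and 0.507% ± 0.0313. The cluster did not differ detectably by genotype after ATV:4D9, with 0 members called (2.49% of all genes higher and 0.273% lower), 1 at an unadjusted p under 0.05, 0 by DESeq2, 2 with the pool as a block and 1 without WT ATV:4D9 replicate 1 or AppSAA ATV:4D9 replicate 4, and a median difference of -0.02. For 4D9 against ATV:ISO edgeR called 0 members in coarse clusters 0 and 3, 1, 2, 4 and 5, with 0, 0, 4, 0 and 1 at an unadjusted p under 0.05 and 0 by DESeq2 in each, and 0.0% of all genes were called in each cluster and direction.

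Coarse cluster 5 rose after ATV:4D9 and was the coarse cluster with the most members called between genotypes. In AppSAA mice the members held 0.0676% ± 0.0087 of its UMIs after ATV:ISO, 0.0646% ± 0.0101 after 4D9 and 0.173% ± 0.00889 after ATV:4D9, against 0.299% ± 0.0263 in WT mice given ATV:4D9. edgeR called 44 of 47 higher after ATV:4D9 than after ATV:ISO in AppSAA (background 14.6%), all but Gins3, Pola2 and Prim2, with a median log2 fold change of 1.87, and 43 did not overlap (11.7%). Hells was at 8.48, 4.81, 4.29 and 7.08 CPM after ATV:ISO and 57.6, 54.9, 51.9 and 58.5 CPM after ATV:4D9 in AppSAA (3.48 ± 0.22, adjusted p = 1.0e-10). In WT mice given ATV:4D9 it was at 114, 133, 118 and 100.1 CPM, above every AppSAA mouse (-0.97 ± 0.13, adjusted p = 1.9e-05). Of 47 members 39 were called lower in AppSAA than in WT after ATV:4D9 (background 2.79%), 45 were lower without overlap (10.8%), and the median difference was -0.74. Dtl had the largest difference, -1.15, with 50.4, 60.3, 58.4 and 46.5 CPM in WT and 20.2, 23.6, 22 and 25.8 CPM in AppSAA. The cluster held 4.21% of the cells of WT and 22.4% of the cells of AppSAA mice given ATV:4D9. Only 1 WT mouse given ATV:ISO had 20 cells of it, so no test against that group was made.

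**Figure D5:**
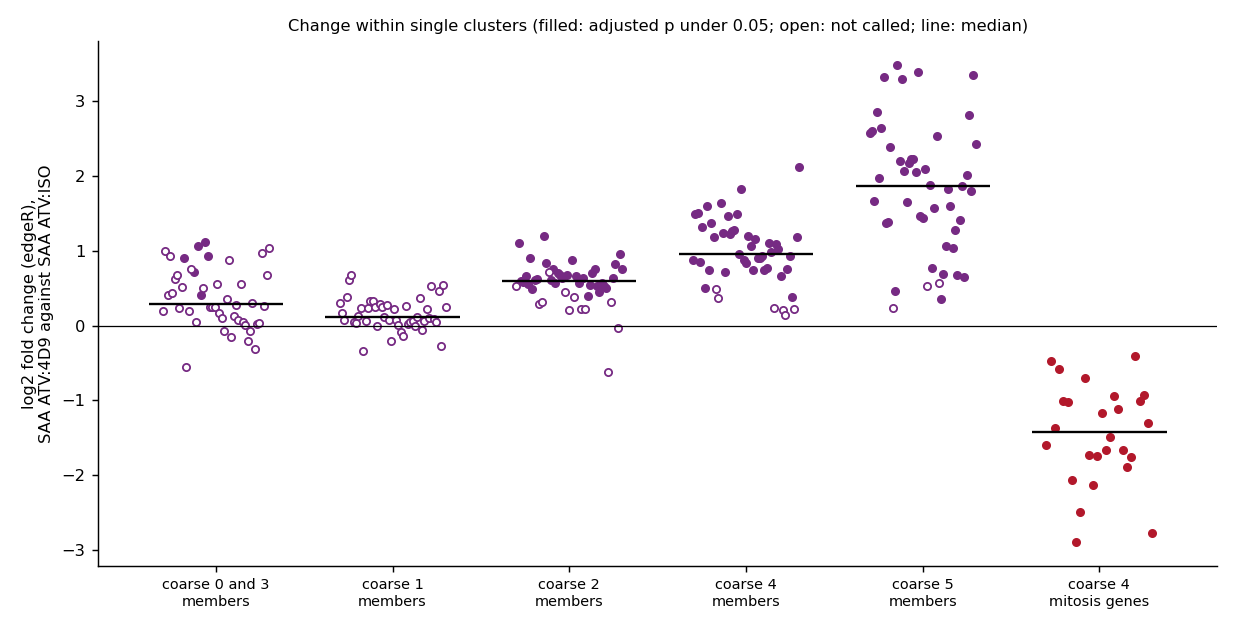
Log2 fold change (y axis, edgeR) of each member in AppSAA mice after ATV:4D9 against ATV:ISO within coarse clusters 0 and 3 together, 1, 2, 4 and 5, and of the 26 mitosis genes within cluster 4, with 1 point per gene, filled where called, and a line at the median. The medians of the members run from 0.11 in cluster 1 to 1.87 in cluster 5, and the mitosis genes all lie below 0.

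Finer cluster 8 is given without a test, because its cells lay in different coarse clusters in different groups. Of its cells, 95.1% were in coarse cluster 1 in AppSAA mice given ATV:ISO and 95.4% after 4D9, but 27.0% were there after ATV:4D9, when 51.0% were in coarse cluster 2 and 20.2% in the cycling coarse cluster 4. In WT mice given ATV:4D9 these shares were 3.86%, 64.3% and 31.3%. The make-up of the cluster thus moved with the values that follow, and its part in them was not tested. In AppSAA mice the members held 0.0426% ± 0.00366 of its UMIs after ATV:ISO and 0.245% ± 0.0277 after ATV:4D9, and 0.384% ± 0.0336 in WT mice given ATV:4D9. Hells was at 1.12, 5.38, 2.41 and 4.9 CPM after ATV:ISO and 65.4, 54.1, 51.7 and 70.1 CPM after ATV:4D9 in AppSAA mice, and at 83.3, 93.1, 86.8 and 84.1 CPM in WT mice given ATV:4D9. Finer cluster 1 held 0.133% ± 0.00592 and 0.248% ± 0.0146 in AppSAA and 0.119% ± 0.0172 and 0.273% ± 0.00563 in WT, while finer clusters 3 and 6 stayed between 0.0477% and 0.0551% in every group with at least 3 mice.

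Of 59 further replication genes listed for comparison, 58 could be tested, and most moved with the members. In all cells 49 were called higher and 6 lower in WT, against 30.8% and 32.5% of all genes, and 50 higher and 2 lower in AppSAA, against 27.9% and 27.1%, with median log2 fold changes of 2.38 and 1.80. Exo1, an exonuclease of repair and replication, rose most, by 4.94 and 3.77 on the log2 scale. Rrm2b, a small subunit of ribonucleotide reductase that is made outside S phase, fell by 0.90 in WT and by 0.60 in AppSAA, to 17.7 CPM from 35.8 CPM in WT. Also called lower were Orc4, Pold4, Samhd1, Top1 and Polb in WT, and Pold4 in AppSAA, in which Samhd1 was called higher. Outside coarse cluster 4, 49 further genes were called higher in each genotype, against 31.1% and 26.2% of all genes, with medians of 1.95 and 1.49. The 26 mitosis genes were all called higher in all cells of both genotypes, with medians of 3.24 and 2.19, but outside coarse cluster 4 they held only 0.0216% of UMIs in WT mice given ATV:4D9, against 0.00644% after ATV:ISO, and 21 in WT and 23 in AppSAA were called higher, beside the same shares of all genes, with medians of 1.59 and 1.38.

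Promoter letters and size of change can be set side by side as a description. The median log2 fold change in WT was 3.79 for the 16 members with an E2F match, 2.82 for the 23 without and 3.20 for the 8 with no promoter entry. Outside coarse cluster 4 it was 3.12, 2.14 and 2.89 in WT, and 2.59, 1.74 and 2.08 in AppSAA. Rrm2, with no match among the bases printed above, and Gins4, with no entry, were the members at the ends of the range of cycling-cluster shares in WT and AppSAA mice given ATV:4D9. In the control groups the lowest share was that of Pola2 or Rfc1.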

How the data were processed

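Microglia of 20 mice in 5 groups were profiled by 10x Genomics 3′ single-cell RNA-seq in 4 pools, where CellPlex tags marked the 5 mice of a pool, 1 per group. The deposited matrix holds counts of UMIs per gene and cell, without normalization, which the authors made with Cell Ranger 6.1.1 on mm10 according to the submitters' processing notes. The deposited cell annotation adds the mouse, group, pool, recorded sex, the percent of mitochondrial UMIs and other cell labels such as the cluster at both resolutions, which the authors assigned with Seurat. The counts of every cell summed to its deposited UMI total. All 74758 cells were kept and no doublet caller was run. More than 25000 UMIs were held by 7141 cells (9.55%), and 543 of 74212 barcodes occur in 2 or more pools. The sort is described as CD11b+ in the labels and as CD45+ and CD11b+ in the series text, and the tissue as cortex with hippocampus or cortex alone.

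UMIs were summed per mouse over all cells, outside coarse cluster 4 and within coarse clusters (at least 20 cells), and the sums were compared by the quasi-likelihood test of edgeR 4.0.16 (R 4.3.3) after filterByExpr and TMM scaling, with all groups in 1 fit and 7 contrasts. Fold changes are edgeR's log2 values, and folds of means are ratios of group mean CPM. Alternatives were RLE scaling, total UMIs as library size and restrictions of coarse clusters 0 and 3 and of cluster 2 by finer cluster (added after seeing the data), DESeq2 1.42.0, limma-voom (limma 3.58.1), no filter on low counts, the pool as a block, a minimum of 50 cells, cells thinned to 4000 UMIs or under 25000 UMIs, and each mouse left out. Shares of all genes called are given for the main fit only. Deviations from the group means correlated above 0.1 in 40 of 40 pairs of mice of a pool (0.143 to 0.607), so that the pool pairs the mice. The main fit has no pool term, so the adjusted p-values given for single members leave out this pairing. The scripts were tested on simulated counts. Gene names and groups are the deposited ones, and nothing in the labels says whether the mice differ in litter.

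The members, their roles and the comparison lists (59 further replication genes and 26 mitosis genes) were chosen with earlier results of these data known. Members named throughout are the 2 with the highest CPM in each role group and the 5 with the largest and the 5 with the smallest change in WT mice, 26 in all. Mcm2, Mcm5, Rrm2, Tk1, Clspn and Orc1, and members named only in counts or at the ends of a range, were chosen after their values were seen. Promoters are from RefSeq (GRCm38.p6). Counting intervals were not needed, because all errors given are between mice. Shares of cells with a UMI were compared by exact permutation tests over mice, with free splits across pools, in Python 3.11.15 with SciPy 1.17.1.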

Additional observations from a re-analysis of the deposited data

Results flagged for a closer look

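Among 140 sets of 4 mice, which covered the CPM of each named member and the summed share of all members by group, 4 held a mouse far from the other 3 by Dixon's test, all of them in the CPM of a named member, and chance alone marks about 1 in 20 such sets. In AppSAA mice given 4D9, Cdt1 was 6.41 CPM in replicate 2, against 8.44, 8.57 and 8.77 CPM in the others, and Tipin was 12.1 CPM in replicate 3, against 15.3, 15.4 and 15.5 CPM. Hells was 4.90 CPM in AppSAA ATV:ISO replicate 2, against 6.0, 6.03 and 6.17 CPM. Prim2 was 27.7 CPM in AppSAA ATV:4D9 replicate 4, against 21.7, 22.0 and 22.5 CPM.

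For 15 named members the rise after ATV:4D9 differed between the genotypes by the interaction term of edgeR, in every case smaller in AppSAA mice. The differences in log2 fold change (AppSAA minus WT) and adjusted p-values were -0.47 for Mcm3 (0.0397), -0.84 for Mcm6 (0.00109), -1.09 for Mcm10 (0.0106), -0.70 for Cdc6 (0.0437) and -0.92 for Cdt1 (0.000673). For Gins2 the difference was -0.66 (0.0268), for Pcna -0.67 (0.00714), for Pola1 -0.77 (0.00061), for Prim1 -0.80 (0.00083) and for Lig1 -0.55 (0.033). Hells differed by -1.09 (0.00106), Dtl by -1.03 (0.00973), Ung by -1.40 (0.00282), Rrm1 by -0.52 (0.014) and Tyms by -0.66 (0.0223).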

How the results depend on the processing

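The call of all 47 members higher after ATV:4D9, in all cells and outside coarse cluster 4, in WT mice and in AppSAA mice against ATV:ISO or 4D9, was 47 under every alternative and without any 1 mouse. For the 26 named members the 1716 alternatives of 104 results kept direction and side of the threshold. Those results were ATV:4D9 against ATV:ISO in each genotype, in all cells and outside coarse cluster 4. Genotype, interaction and within-cluster results of single named members were not checked in this way. The 80 comparisons of detection in unthinned cells also kept direction and side, but each p was again the smallest possible, so it could not show a change in strength. In all cells and outside coarse cluster 4 the counts between genotypes moved most, and the cause was not tested.

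With the pool as a replicate block the counts of called members were 25 (in place of 15) between the isotype groups in all cells and 21 (in place of 12) outside coarse cluster 4, 46 (in place of 25) and 44 (in place of 16) between genotypes after ATV:4D9, and 38 (in place of 25) and 35 (in place of 18) for the interaction. Within coarse clusters 0 and 3 the block gave 18 in place of 11 in WT, 13 in place of 6 in AppSAA and 16 in place of 7 against 4D9. It gave 2 in cluster 1 for AppSAA and 1 against 4D9, 1 in cluster 2 for the genotypes after ATV:4D9 and 1 for the interaction, and 2 in cluster 4 for the genotypes after ATV:4D9, each in place of 0. The block moved no other count by over 1.5 times. The share of all genes called with the block is not given here, so its counts have no background beside them.

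Total UMIs as library size gave 44 and 42 for the genotypes after ATV:4D9 in all cells and outside cluster 4, where the median of all genes was -0.15 in both. Between the isotype groups in cluster 2 it gave 0 in place of 1 (Pcna), as did RLE and leaving out the cells also in finer cluster 4 or 8 or taking only those also in finer cluster 1. Taking only cells also in finer cluster 0 or 2 gave 5, 1 and 1 in clusters 0 and 3 (WT, AppSAA, against 4D9), with no background share of all genes. Without cells above 25000 UMIs the isotype comparison gave 7 and 5 and the ATV:4D9 comparison 41 and 26. With cells thinned to 4000 UMIs the isotype comparison gave 5 and 3, the ATV:4D9 comparison 38 in all cells, and the interaction 15 and 6. Outside coarse cluster 4 the isotype comparison also gave 6 by limma-voom and 7 outside finer clusters 4 and 7.

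With single mice left out, the counts ranged from 10 to 18 (isotype groups, all cells), 6 to 14 (the same outside cluster 4), 11 to 37 and 6 to 34 (genotypes after ATV:4D9), and 20 to 35 and 12 to 28 (interaction). They ranged from 8 to 11, 5 to 7 and 3 to 7 in clusters 0 and 3 (WT, AppSAA, against 4D9), 0 to 1 in cluster 1, 16 to 34 (AppSAA), 25 to 34 (WT) and 0 to 1 (isotype groups) in cluster 2, 40 to 42 (AppSAA) and 0 to 1 (genotypes) in cluster 4, and 39 to 44 (AppSAA) and 33 to 40 (genotypes) in cluster 5. The isotype count in cluster 2 was 0 without any WT ATV:ISO mouse or without AppSAA ATV:ISO replicate 1, 2 or 4.

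Depth limits the values within coarse cluster 4 of AppSAA isotype mice (27 to 74 cells) and within cluster 2 of WT isotype mice (23 to 42 cells). WT isotype mice had 6 to 13 cells in coarse cluster 4, too few for a test.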
